A study of Danio rerio with 6 samples.

Results

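Cycling epicardial and fibroblast cells of the adult zebrafish ventricle were examined in 6 single-cell RNA libraries. A cell was counted as one of them when it carried at least 2 transcript molecules (unique molecular identifiers, UMIs) of top2a and mki67 together, at least 5 UMIs summed over the collagen genes col1a1a, col1a2 and col5a1, and at least 1 UMI of tcf21, tbx18, wt1b, podxl or pdgfra. It also had to have 0 UMIs of the endothelial gene cdh5 and of the macrophage gene mpeg1.1, at least 1000 UMIs, at least 200 genes, and no more than 30% of its UMIs from mitochondrial genes. The rule found 360 cells among 69400 deposited barcodes, which is 0.519%. Cells that met every other part of the rule, whatever their top2a and mki67, are called stromal cells here and numbered 4977, of which the cycling cells made up 7.23%. Stromal cells with 0 UMIs of top2a and mki67 are called non-cycling, a name for the cut that does not place them all outside the cycle.

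The epicardium is the mesothelial sheet that covers the heart, and its derivatives include the fibroblasts that lie below it and in the wound. In zebrafish, which regrow ventricular muscle after the apex is cut off, epicardial cells and fibroblasts divide soon after injury, cover or enter the wound, and lay down a provisional matrix. The gene top2a encodes topoisomerase II alpha, which untangles replicated chromosomes, and mki67 encodes the Ki-67 protein of dividing cells. Both transcripts are found mainly from S phase to mitosis, so cells early in G1 or outside the cycle carry few or none. The gene tcf21 encodes a transcription factor of epicardium and fibroblasts, tbx18 and wt1b encode transcription factors of the epicardium, podxl encodes a surface sialomucin of epicardial and endothelial cells, and pdgfra encodes a platelet-derived growth factor receptor of fibroblasts.

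The libraries came from adult wild-type (WT) fish and from adult fish heterozygous for clofv087b, an allele of cloche (het). Each genotype was sampled as sham hearts, labelled untreated, and at 3 and 7 days after ventricular amputation (dpa). Each group was 1 library from a pool of 15 ventricles. Without replicates of a group, genotypes and times were compared by values and counting intervals and not by tests. The labels give neither the sex nor the age beyond adult, and the genotype was not checked against the counts here. Cells were digested in the cold and sorted for a Hoechst DNA stain to remove debris, and how the gate treated nuclei with replicated DNA was not given in the sources used here. The libraries held 9445 to 14816 barcodes and 63752936 to 117947578 UMIs. Of 68841 distinct barcode sequences, 557 occurred in more than 1 library, and 3 of the cycling stromal cells carried such a barcode, none of them shared with another cycling stromal cell.

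The marker genes given next were part of the rule, so their presence describes the cells and does not test the name. In cycling cells at 3 dpa the collagen gene col1a1a stood at 2005 CPM (counts of the gene per 1000000 UMIs of the summed cells) in WT and 1839 CPM in het, and every one of these cells had UMIs of all 3 collagen genes. At least 2 of the 5 lineage genes were found in 159 of 178 WT cells (89.3%) and in 139 of 164 het cells (84.8%). The fibroblast receptor gene pdgfra had a UMI in 77.5% of the WT and 75.6% of the het cells, and the epicardial factor gene tbx18 in 69.7% and 52.4%. The lineage factor gene tcf21 had a UMI in 36.0% of the cycling cells against 54.2% of the non-cycling cells in WT, and in 49.4% against 66.8% in het. Its level was 28.0 CPM in cycling against 109.5 CPM in non-cycling cells in WT and 63.1 against 253 CPM in het. Thus tcf21 marked fewer cycling than non-cycling cells, although the cycling cells were the deeper ones. Non-cycling cells matched in depth as closely as possible had a tcf21 UMI in 56.2% (71.8 CPM) in WT and 59.8% (150 CPM) in het. From 10000 to under 20000 UMIs, stromal cells with tcf21 were cycling in 10.5% (WT) and 18.3% (het), and those without in 21.9% and 30.4%. From 20000 to under 40000 UMIs the shares were 20.8% and 52.0% with tcf21, and 42.7% and 52.3% without. In het they were thus alike in the deeper range. Macrophages of the same libraries should lack these genes and had median depths of 10655.5 and 7954 UMIs. They held a tcf21 UMI in 0.267% and 0.619% of cells and a pdgfra UMI in 0.481% and 0.309%. However, they were counted only with under 5 UMIs of the 3 collagen genes, a cut that also removes macrophages carrying much stromal RNA. Their shares may therefore lie below the level that free RNA gives.

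Genes of epicardium and fibroblasts occurred together in single cells, in non-cycling cells too. A podxl UMI was found together with tcf21 or pdgfra in 87 WT cells (48.9%) and 80 het cells (48.8%), and in 46.6% and 36.6% of non-cycling cells matched to them in depth. In macrophages of the same libraries, chosen with few collagen UMIs, podxl had a UMI in 8.45% and 5.32% of cells. In endothelial cells, which express it and were chosen likewise, the shares were 68.6% and 67.6%. The podxl gene was found without tcf21 or pdgfra in 24 WT and 13 het cells, and tcf21 or pdgfra without podxl in 64 and 69. These genes were part of the rule, so their presence describes the cells and supports nothing. The cells are therefore called cycling stromal cells below, with no division into epicardial cells and fibroblasts.

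Marker lists of other cell types had counts, and the sums of the mural and thrombocyte lists were higher than in all cells past the filters. Summed over 10 macrophage markers, cycling cells at 3 dpa held 118 CPM in WT and 96.4 CPM in het, against 352 and 268 CPM in non-cycling cells, with mpeg1.1 at 0 by the rule. Summed over 7 cardiomyocyte markers they held 2802 and 3217 CPM, against 5842 and 6361 CPM in non-cycling cells. The 5 mural (pericyte and smooth muscle) markers were pdgfrb, notch3, kcne4, myh11a and tagln, of which pdgfrb is also on the growth factor receptor list used below. Summed over these, cycling cells held 1426 and 1714 CPM against 1228 and 1117 CPM in non-cycling cells. All cells past the filters held 412 and 442 CPM of the mural markers. Summed over 4 thrombocyte markers the cycling cells held 139 and 114 CPM, against 97.4 and 76.4 CPM in non-cycling cells. All cells past the filters held 36.4 and 35.7 CPM of these. The 4 markers were itga2b, mpl, gp1bb and thbs1b, and itga2b and mpl were at 0 in the het cycling cells. The gene thbs1b is also on the wound matrix list used below, so the sum is not particular to thrombocytes. Endothelial markers summed to 9.47 and 5.05 CPM with cdh5 and pecam1 at 0, and the 4 B cell markers were at 0 in both libraries. Erythrocyte genes stood at 686 against 234 CPM in WT and at 240 against 522 CPM in het, so they moved in opposite directions in the 2 libraries. A doublet score marked 10 of the 178 and 10 of the 164 cells as likely doublets. Without likely doublets, at 3 dpa the cycling share of stromal cells described next was 24.4% in WT and 21.0% in het.

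Cycling stromal cells were almost all found at 3 dpa, in both genotypes. In WT they were 0 of 283 stromal cells in the sham library (95% exact binomial interval 0 to 1.30%). They were 178 of 722 (24.7%, 21.5 to 28.0) at 3 dpa and 6 of 1143 (0.525%, 0.193 to 1.14) at 7 dpa. In het they were 5 of 550 (0.909%, 0.296 to 2.11) in sham, 164 of 761 (21.6%, 18.7 to 24.6) at 3 dpa and 7 of 1518 (0.461%, 0.186 to 0.948) at 7 dpa. The 2 libraries at 3 dpa held 342 of the 360 cells, or 95%. These intervals, and all others below, cover counting error only and not the spread between fish. Since the same UMIs chose the cells, the shares are a description.

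The share rose and fell steeply in both genotypes. In WT the share at 3 dpa was 23.3-fold that of sham when 3 cells were put in place of the 0 in the sham library. The exact lower limit of the WT log2 ratio was 4.23. In het the share at 3 dpa was 23.7-fold that of sham (log2 ratio 4.57, exact interval 3.32 to 6.21). From 3 to 7 dpa the share dropped 47.0-fold in WT (log2 ratio −5.55, −7.02 to −4.40) and 46.7-fold in het (−5.55, −6.88 to −4.47). Without likely doublets the log2 ratios of 7 to 3 dpa were −6.02 and −6.58. Between genotypes the log2 ratio of het to WT at 3 dpa was −0.19 (−0.51 to 0.12). At 7 dpa the log2 ratio was also −0.19 (−1.98 to 1.66), and both intervals include 0. Summed over all stromal cells, the joint level of top2a and mki67 in WT was 0.372 CPM in sham, 166 CPM at 3 dpa and 6.41 CPM at 7 dpa. In het it was 6.51 CPM in sham, 205 CPM at 3 dpa and 9.45 CPM at 7 dpa.

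**Figure D1:**
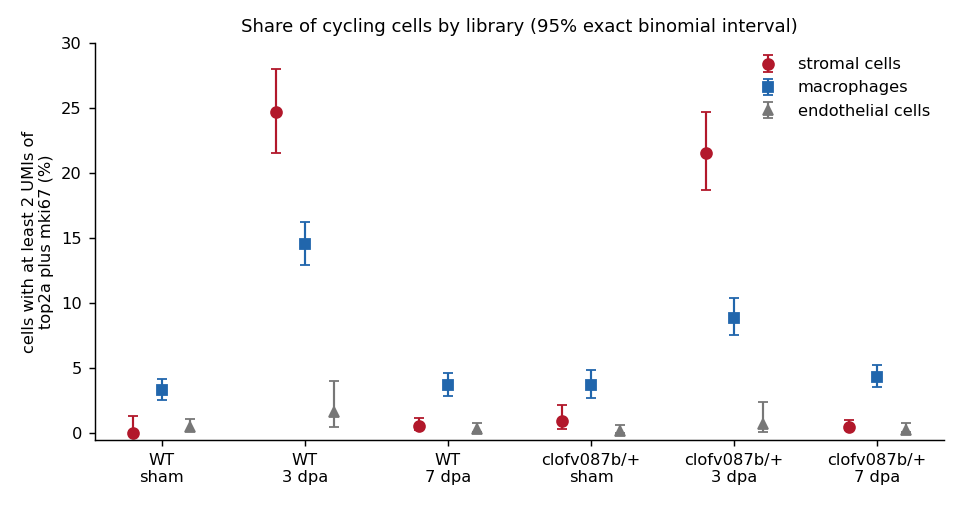
Share of cycling cells (percent, vertical axis) among stromal cells, macrophages and endothelial cells in each of the 6 libraries, with exact 95% binomial intervals as bars. Stromal cells reach 24.7% in WT and 21.6% in het at 3 dpa and stay below 1% in every other library.

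In macrophages of the same libraries the share rose and fell too, by smaller factors. Macrophages were counted by at least 2 UMIs of mpeg1.1, 0 of cdh5 and under 5 of the 3 collagen genes. With the same cycling cut, 3.24% of them were cycling in WT sham, 14.5% at 3 dpa and 3.63% at 7 dpa. In het the macrophage shares were 3.63% in sham, 8.85% at 3 dpa and 4.32% at 7 dpa. Their share at 3 dpa was 4.47-fold that of sham in WT and 2.44-fold in het. The log2 ratio of het to WT at 3 dpa was −0.71 (−1.01 to −0.41) in macrophages, and the difference from the stromal ratio was not tested. Endothelial cells, counted by cdh5, had a cycling share of 0.110% to 1.57% over the 6 libraries at median depths of 2318 to 4124 UMIs.

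Depth entered the rule, because a deeper cell more easily shows 2 UMIs. Median depth of all stromal cells in WT was 8175 UMIs in sham, 13423.5 at 3 dpa and 7408 at 7 dpa. In het it was 8788 UMIs in sham, 9190 at 3 dpa and 6185.5 at 7 dpa. With every cell thinned to 3000 UMIs and 1 UMI of top2a or mki67 required, the share was 1 of 267 (0.375%), 114 of 673 (16.9%) and 8 of 949 (0.843%) in WT. In het it was 2 of 522 (0.383%), 115 of 680 (16.9%) and 12 of 1191 (1.01%). The peak at 3 dpa was thus present with top2a and mki67 counted at equal depth too. The stromal class itself was still set from all UMIs of a cell, so the denominators were not freed of depth. Thinning left out 16, 49 and 194 shallower cells in WT and 28, 81 and 327 in het. The log2 ratio of het to WT at 3 dpa was then −0.00 (−0.39 to 0.38). Endothelial cells thinned in the same way were positive in 1 of 98 cells (1.02%) in WT and 3 of 83 (3.61%) in het at 3 dpa.

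Among stromal cells at 3 dpa the deep cells were the cycling ones. The share rose from 2.13% of WT cells with 1000 to under 5000 UMIs to 70.5% of those with 40000 or more, and from 1.39% to 82.1% in het. After thinning to 3000 UMIs it still ran from 9.78% to 32.6% in WT and from 3.70% to 48.7% in het over the same cells, where the lowest range keeps only cells with at least 3000 UMIs. Cycling cells had a median of 41262.5 UMIs and 5263.5 genes in WT and 26978.5 UMIs and 4374.5 genes in het. Non-cycling cells had a median of 8593.5 UMIs and 1931 genes in WT and 6208 UMIs and 1506 genes in het, so depth differed 4.80-fold in WT and 4.35-fold in het. RNA content per cell and capture of RNA cannot be told apart in these counts.

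**Figure D2:**
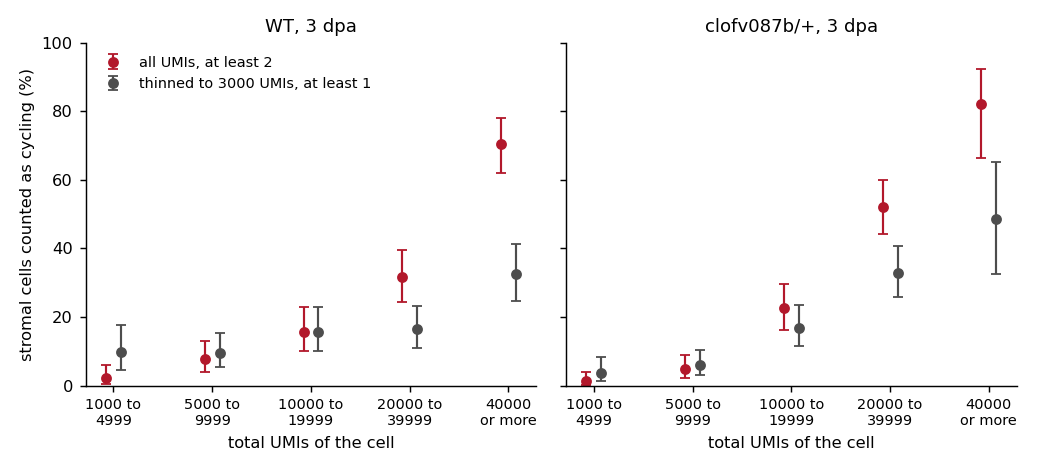
Share of cycling cells (percent) among stromal cells at 3 dpa by range of total UMIs per cell, for all cells as deposited and after thinning each cell to 3000 UMIs, with exact 95% binomial intervals. The share climbs with depth in WT and het in both versions, less steeply after thinning.

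Cycling cells were also nearly all cells with the wound collagen XII genes. At least 5 UMIs of col12a1a and col12a1b, which encode a fibril-associated collagen of the zebrafish heart wound, were found in 170 of 178 WT cells (95.5%) and 159 of 164 het cells (97.0%). In non-cycling cells matched to them in depth as closely as possible the shares were 77.0% and 78.7%, and in all non-cycling cells 43.0% and 33.0%. The matched cells still lay 1.75-fold (WT) and 1.64-fold (het) lower in median depth, and a fixed cut of 5 UMIs is met more easily by deeper cells. From 10000 to under 20000 UMIs, stromal cells with at least 5 collagen XII UMIs were cycling in 17 of 86 cells (19.8%) in WT and 35 of 130 (26.9%) in het. Those with fewer were cycling in 5 of 54 (9.26%) and 1 of 30 (3.33%).

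Genes of DNA replication and mitosis were higher in the cycling cells throughout. The cells were chosen by 2 genes of the same program, so these levels are a description with no test. The mitotic kinase gene cdk1 stood at 83.7 CPM in cycling against 3.94 CPM in non-cycling cells of the WT library at 3 dpa, and at 146 against 3.28 CPM in het. The mitotic kinase gene plk1 stood at 59.6 against 0.757 CPM and at 80.6 against 0.615 CPM. The sliding clamp gene pcna, which acts in replication, stood at 540 against 148 CPM and at 449 against 84.8 CPM. Summed S phase genes in non-cycling cells stood at 879 CPM in WT and 612 CPM in het at 3 dpa, against 128 and 95.8 CPM in sham. A pcna UMI was found in 27.2% and 23.1% of non-cycling cells at 3 dpa, and in 43.8% and 42.1% of the depth-matched ones. Some of the non-cycling cells may therefore have been in the cycle, which was not tested. Over 47 G2/M genes the fitted log2 difference between cycling and non-cycling cells ran from 1.90 to 6.40 with a median of 4.34. Over 30 S phase genes it ran from 0.51 to 3.03 with a median of 1.38. Over 17 chromatin and tubulin genes it ran from 0.34 to 1.97 with a median of 0.98. The median over all 12115 genes of the fit was −0.01. Against depth-matched non-cycling cells the medians were 4.26 for the G2/M genes and 1.17 for the S phase genes. Both classes were set by their UMIs of top2a and mki67, which bears on the order of the 2 lists, so no conclusion is drawn from it.

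S phase and G2/M genes were both represented in the cycling cells. Of the UMIs on the S phase and G2/M lists, the S phase list held 50.3% (49.8 to 50.9) in WT and 45.2% (44.6 to 45.8) in het at 3 dpa. The same share in cycling macrophages was 38.4% in WT and 40.4% in het. Among single cells the share ran from 1.99% to 96.0% with a median of 57.2% in WT, and from 5% to 100% with a median of 52.5% in het. A share over 75% was found in 58 WT and 41 het cells and a share under 25% in 37 and 31, while 81 and 91 cells lay between. The list share is a ratio of summed UMIs and leans on pcna and cenpf, the genes with the most UMIs on the 2 lists at 3 dpa in WT.

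**Figure D3:**
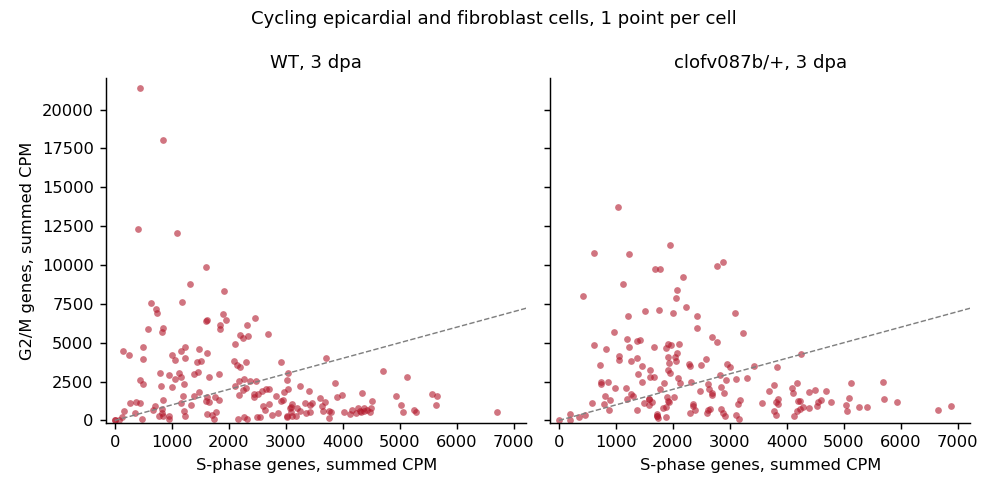
Each cycling stromal cell at 3 dpa by its summed level of S phase genes (CPM, horizontal axis) and of G2/M genes (CPM, vertical axis), WT and het apart, with a dashed line where both are equal. Cells spread along both axes, with S phase levels up to 6714 CPM in WT and 6880.5 CPM in het and G2/M levels up to 21362 and 13756.5 CPM.

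Genes of G1 and cell-cycle exit went both ways, and belong to the lists given with no test. The antiproliferative gene btg2 stood at 180 CPM in cycling against 516 CPM in non-cycling cells in WT and at 145 against 721 CPM in het, which is 2.87-fold and 4.99-fold lower. The related antiproliferative gene tob1b was 2.80-fold and 3.48-fold lower, with a UMI in 69.1% of cycling and 69.0% of non-cycling WT cells in spite of the difference in depth. The G1 cyclin gene ccnd1 stood at 93.4 against 48.0 CPM in WT and at 94.1 against 40.0 CPM in het. The inhibitor gene cdkn1a, which restrains cyclin-dependent kinases, stood at 70.2 against 28.6 CPM and at 67.8 against 35.9 CPM, so it was higher in the cycling cells. Over the 34 genes of this list with enough counts the median log2 difference was −0.14, with a range of −2.88 to 2.39.

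Cycling and non-cycling stromal cells at 3 dpa also differed outside the cell-cycle lists. Fibroblast genes of the resting heart and the fibronectin gene fn1b were several-fold lower in cycling cells, while its paralog fn1a and genes of ribosome making were higher. The comparison set the UMI sums of the 178 WT and 164 het cycling cells against those of the 474 WT and 533 het non-cycling cells, with the library as a block, in edgeR's quasi-likelihood test with Benjamini-Hochberg adjustment over 12115 genes. At an adjusted p under 0.05, 3049 genes rose (25.2%) and 3149 fell (26%), 51.2% of those tested. Genes of the rule and of the cell-cycle lists stayed in the fit and in these counts, although the choice of cells acts on them. With library totals in place of TMM scaling, 3964 rose and 2498 fell and the median of all genes was 0.16, so the balance of rises and falls depends on the scaling. The 2 libraries differ in genotype and leave 1 residual degree of freedom among samples, so the spread comes mainly from the pooling over genes. The p-values below therefore do not measure the spread between fish. Each SE below is the absolute log2 difference divided by the square root of the F statistic of the test. Against depth-matched cells, whose median depth still lay 1.75-fold (WT) and 1.64-fold (het) below that of the cycling cells, 1699 of 11474 genes rose (14.8%) and 2031 fell (17.7%), 32.5% in all. The part of depth in the differences that remain was not tested. Of genes described below as having risen, fn1a, tgfb1a, inhbaa, has1, serpinh1b, tnc, krt18a.1, fbl, ncl and hspa5 no longer passed the test when the small groups at sham and 7 dpa were added, and against depth-matched cells tnc and, among those that fell, wt1a did not.

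**Figure D4:**
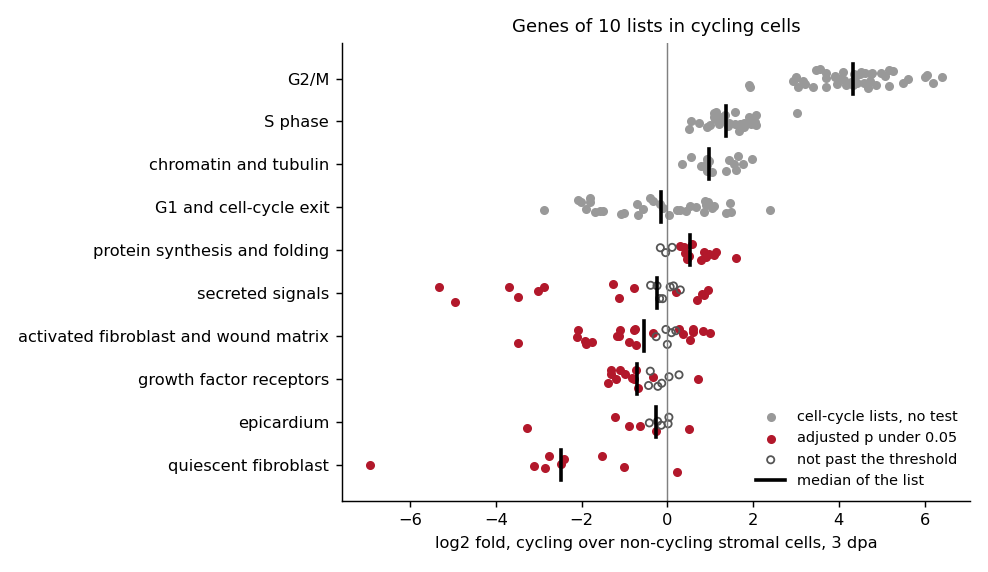
Log2 fold between cycling and all non-cycling stromal cells at 3 dpa (horizontal axis), 1 point per gene of each of 10 lists, with black bars at the list medians. Filled red points passed an adjusted p of 0.05, open points did not, and grey points belong to the 4 cell-cycle lists given with no test. The G2/M list lies farthest to the right (median 4.34) and the quiescent fibroblast list farthest to the left (median −2.47).

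Fibroblast genes of the uninjured heart were lower in the cycling cells. Of 9 tested genes on the quiescent fibroblast list 8 fell and 1 rose, beside 26% falling and 25.2% rising among all genes. The list median was −2.47 beside −0.01 over all genes. Against depth-matched cells 8 fell with a median of −1.71, beside 17.7% of all genes falling. The gene dpt, which encodes the matrix protein dermatopontin, stood at 31.5 CPM in cycling against 193 CPM in non-cycling WT cells and at 49.9 against 331 CPM in het, 6.11-fold and 6.65-fold lower (log2 difference −2.85, SE 0.13). The microfibril gene mfap5 stood at 101 against 425 CPM and at 95.1 against 546 CPM, and the secreted protease gene htra1b at 114 against 436 CPM and at 119 against 694 CPM. The proteoglycan gene dcn (decorin) fell by 1.52 on the log2 scale and the complement gene c4b by 2.76. The exception was cygb1, a cytoglobin gene, at 0.23, which turned to −0.13 against depth-matched cells.

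The 2 fibronectin genes moved in opposite directions. Fibronectin is a major component of the provisional matrix that forms on the injured zebrafish heart. The gene fn1b stood at 600.5 CPM in cycling against 5777 CPM in non-cycling cells in WT and at 853 against 8711 CPM in het, 9.62-fold and 10.2-fold lower (log2 difference −3.49, SE 0.08). The gene fn1a stood at 2677 against 1466 CPM in WT and at 3098 against 1389 CPM in het, 1.83-fold and 2.23-fold higher (log2 difference 0.84, SE 0.08, edgeR quasi-likelihood test, Benjamini-Hochberg adjusted p = 5.2e-22). Against depth-matched cells the log2 differences were −2.97 and 0.51, so both kept their direction. With the small groups at sham and 7 dpa added they were −1.86 and 0.38, where fn1a no longer passed the test, and among cells with collagen XII UMIs −3.18 and 0.35. Among cells under 5000 CPM of cardiomyocyte markers they were −3.58 and 0.78, and among cells with 0 UMIs of 5 blood cell genes −3.35 and 0.78.

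Single cells showed the fn1b difference as a shift of most cells with a tail. The median cycling cell had 53.4 CPM of fn1b in WT and 91.9 CPM in het, against 4783 and 7433 CPM in the median non-cycling cell and 2075 and 3136 CPM in the median depth-matched cell. A UMI of fn1b was found in 117 of 178 cycling cells (65.7%) in WT and in 107 of 164 (65.2%) in het, beside 88.4% and 89.9% of the shallower non-cycling cells. In macrophages of the same libraries, chosen with few collagen UMIs, fn1b had a UMI in 6.79% and 6.93% of cells. The 10% of cycling cells with the most fn1b held 66.2% of their fn1b UMIs in WT and 73.6% in het. For fn1a the median cycling cell had 2269 and 2612 CPM against 352 and 275 CPM in the median non-cycling cell. Within the cycling cells, those with an S phase share under 25% held 926 CPM of fn1b in WT and 1195 CPM in het. Those over 75% held 597 and 797 CPM, and those between held 450 and 472 CPM. Each of these groups thus lay below the summed fn1b level of the non-cycling cells.

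**Figure D5:**
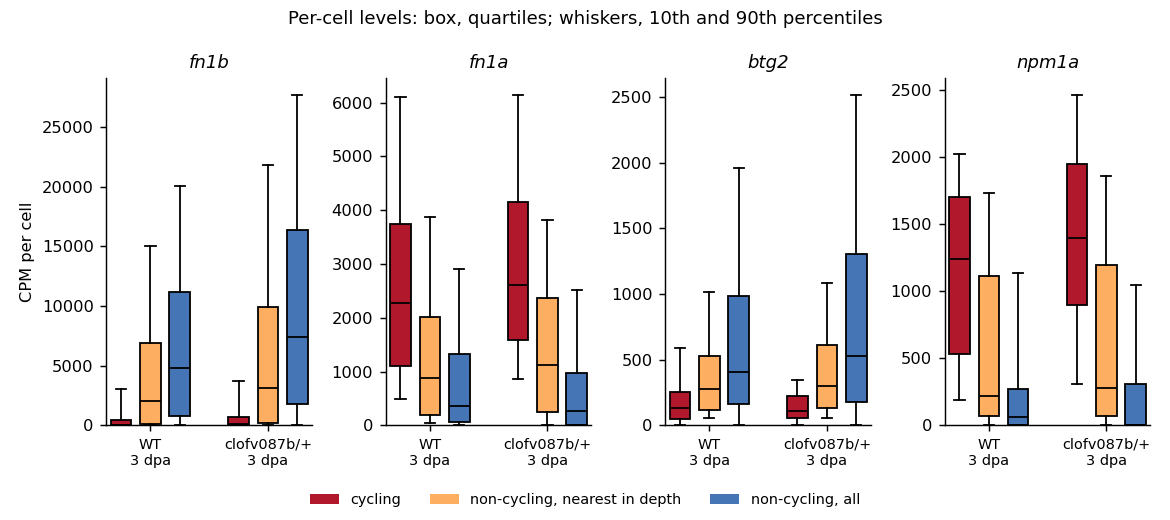
Levels of fn1b, fn1a, btg2 and npm1a in single cells at 3 dpa (CPM per cell, vertical axis) in cycling, depth-matched and all non-cycling stromal cells of WT and het, with boxes at the quartiles, lines at the medians and whiskers at the 10% and 90% points. Cycling cells lie low in fn1b (medians 53.4 and 91.9 CPM) and btg2 (130 and 113 CPM) and high in fn1a (2269 and 2612 CPM) and npm1a (1238 and 1399 CPM).

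The wider list of activated fibroblast and wound matrix genes split. Of 26 tested genes 7 rose and 14 fell (median −0.54), beside 25.2% rising and 26% falling among all genes. Against depth-matched cells 4 rose and 11 fell, beside 14.8% and 17.7% of all genes. The rises were thus near the share of all genes in both comparisons. The metalloproteinase inhibitor gene timp2b stood at 1320 against 601 CPM in WT and at 1586 against 696 CPM in het and rose (log2 difference 0.98), although its sign turned with the small groups at sham and 7 dpa added (−0.061). The collagen chaperone gene serpinh1b rose by 0.60 and the matricellular gene tnc by 0.61. The basement membrane collagen genes col4a1 and col4a2 fell by 1.91 and 2.09, and the gelatinase gene mmp2 by 1.76. The smooth muscle actin gene acta2 also fell, at 47.2 against 227 CPM in WT and 50.1 against 147 CPM in het. The microfibrillar collagen genes col6a1 and col6a2 fell by 1.13 and 1.17 and sparc, a collagen-binding matricellular gene, by 0.76. The periostin gene postnb stood at 446 against 445 CPM in WT and at 316 against 259 CPM in het (log2 difference −0.03, SE 0.11) and did not pass the test. The collagen XII gene col12a1a differed by 0.26 against all non-cycling cells and by −0.10 against depth-matched cells.

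Epicardial genes that the rule did not use fell more often than they rose. Of 11 tested genes 1 rose and 5 fell (median −0.26), beside 25.2% rising and 26% falling among all genes. Against depth-matched cells 1 rose and 7 fell (median −0.34), beside 14.8% and 17.7% of all genes. With a second test, DESeq2's Wald test, 1 rose and 3 fell, and among cells with collagen XII UMIs 0 rose and 7 fell. The cardiac transcription factor gene gata5 stood at 32.2 against 60.7 CPM in WT and at 39.1 against 89.5 CPM in het (log2 difference −1.23, SE 0.14), and its relative gata6 fell by 0.90. The semaphorin gene sema3fb, a guidance factor, fell by 3.28 and wt1a, paralog of wt1b, by 0.64. The gene aldh1a2, whose enzyme makes retinoic acid in the epicardium, stood at 607 against 643 CPM in WT and at 516 against 546 CPM in het, a log2 difference of −0.26. The keratin gene krt18a.1 rose by 0.52, while its partner krt8 stood at 3670 against 3316 CPM and at 2903 against 2453 CPM and did not pass the test (0.02), with −0.18 against depth-matched cells.

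Secreted signals were lower or higher by gene. Of 21 tested genes 5 rose and 9 fell (median −0.24), beside 25.2% rising and 26% falling among all genes. Against depth-matched cells 4 rose and 6 fell of 18 (median −0.075), beside 14.8% rising and 17.7% falling among all genes. The link protein gene hapln1a, which ties hyaluronan to proteoglycans and belongs to an epicardial subset in zebrafish, stood at 34.9 CPM in cycling against 354 CPM in non-cycling WT cells and at 44.6 against 584 CPM in het (log2 difference −3.70, SE 0.13, edgeR quasi-likelihood test, Benjamini-Hochberg adjusted p = 1.6e-171). A UMI of hapln1a was found in 35.4% of non-cycling WT cells and 58.0% of non-cycling het cells. The 10% of non-cycling cells with the most hapln1a held 72.6% of its UMIs in WT and 48.2% in het. The hyaluronan synthase genes has1 and has2 rose by 0.69 and 0.80, opposite to the link protein. The midkine gene mdkb, a heparin-binding growth factor, stood at 2.54 against 56.6 CPM and at 2.74 against 96.9 CPM and fell by 4.96. Its paralog mdka stood at 7071 against 5998 CPM and at 6777 against 4674 CPM, a log2 difference of 0.21 that turned to −0.074 against depth-matched cells. The ligand gene tgfb1a stood at 137.5 against 56.0 CPM in WT and at 110 against 58.4 CPM in het and rose by 0.94, and the activin subunit gene inhbaa rose by 0.86. The relatives tgfb2 and tgfb3 fell by 1.13 and 0.78, so members of the same ligand family parted. The cardiomyocyte mitogen gene nrg1 stood at 13.9 against 11.1 CPM and at 9.89 against 5.94 CPM and did not pass the test.

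Receptor genes for growth factors fell more often than they rose. Of 18 tested genes 11 fell and 1 rose (median −0.71), beside 26% falling and 25.2% rising among all genes. Against depth-matched cells 8 fell and 1 rose (median −0.50), beside 17.7% and 14.8% of all genes. With a second test, DESeq2's Wald test, 5 of the 18 fell and 0 rose. The fibroblast growth factor receptor genes fgfr2 and fgfr4 fell by 1.38 and 1.30, the decoy chemokine receptor gene ackr3b by 1.31, and the neuregulin co-receptor gene erbb2 by 1.11. The Wnt receptor gene fzd7a was the one that rose, at 54.6 against 27.4 CPM in WT and 45.0 against 26.8 CPM in het, and its log2 difference of 0.71 turned to −0.018 with the small groups at sham and 7 dpa added. The TGF-beta receptor gene tgfbr2b stood at 18.1 against 38.8 CPM in WT and at 16.6 against 32.0 CPM in het (log2 difference −1.21), the reverse of the direction of tgfb1a.

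Genes of ribosome making and protein folding were mostly higher in the cycling cells, less so in narrower comparisons. Of 16 tested genes 13 rose and 0 fell (median 0.54), beside 25.2% rising and 26% falling among all genes. The count was smaller against depth-matched cells, where 9 rose and 1 fell (median 0.24), beside 14.8% and 17.7% of all genes. Among cells with collagen XII UMIs 7 rose, 1 fell and 8 did neither (median 0.13), beside 15.3% and 17.3% of all genes. The polyamine enzyme gene odc1 stood at 217 against 72.7 CPM in WT and at 245 against 61.9 CPM in het, 2.99-fold and 3.95-fold higher. The nucleolar gene npm1a stood at 1351 against 606 CPM in WT and at 1557 against 566 CPM in het (log2 difference 1.13, edgeR quasi-likelihood test, Benjamini-Hochberg adjusted p = 3.9e-31), and 0.66 against depth-matched cells. The small nucleolar RNA-protein gene nop58 rose by 1.09, fibrillarin (fbl) by 0.97 and nucleolin (ncl) by 0.86. The endoplasmic reticulum chaperone gene hspa5 rose by 0.51.

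By a rule of size, 12 genes in each direction were named outside the lists of the cell cycle. Highest in cycling cells were CR762436.1, si:dkey-108k21.19, hist1h2a5, g2e3, FQ312024.1, knl1, depdc1a, pif1, kifc1, mtfr2, si:dkey-261m9.12 and fbxo5. Of these, knl1 encodes a kinetochore scaffold, kifc1 a spindle motor and fbxo5 an inhibitor of the anaphase-promoting complex. The cells were chosen by top2a and mki67, so the rise of such genes of cell division is a description and supports nothing. Their log2 differences ran from 5.00 to 6.17, and kifc1 was 41.7-fold higher in WT and 40.1-fold higher in het. Lowest were si:dkey-282h22.5, matn4, angptl7, itih1, zgc:153704, abi3bpb, gria1a, abi3bpa, cldn7a, adamtsl2, hey1 and rspo1. The first 4 had 0 UMIs in the cycling cells of both libraries. With a floor of 3 counts over the 2 libraries in place of 0, si:dkey-282h22.5 was 81.3-fold lower, matn4 61.1-fold, angptl7 54.2-fold and itih1 31.2-fold. The floor counts UMIs and not cells, so these values are no lower bounds where few cells hold a gene.

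Several of these lowest genes belonged to few cells. The gene zgc:153704 was held by 19 of 474 non-cycling WT cells and 23 of 533 het cells, with up to 50378 CPM in 1 cell. The Wnt amplifier gene rspo1 was held by 18 and 12 non-cycling cells. The matrix-protein gene abi3bpb stood at 0.283 against 42.7 CPM in WT and at 0.631 against 55.7 CPM in het, with a UMI in 6.96% and 6.94% of the non-cycling cells. The glutamate receptor gene gria1a was more widely held, in 14.1% and 16.9% of non-cycling cells against 1.12% and 1.22% of cycling cells.

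Cells just outside the cut lay between the classes. Those with exactly 1 UMI of top2a and mki67 numbered 70 in WT and 64 in het, those with 2 or 3 UMIs 58 and 58, and those with 4 or more 120 and 106. Summed fn1b was 5777, 1865, 909 and 485 CPM at 0, 1, 2 to 3, and 4 or more UMIs in WT and 8711, 3406, 1445 and 617 CPM in het. Summed G2/M genes were 167, 517, 876 and 2954 CPM in WT and 136, 685, 1061 and 3996 CPM in het. Median depth moved with them, at 8593.5, 19914, 38486.5 and 44824.5 UMIs in WT and 6208, 16392.5, 23023 and 30778 UMIs in het, and its part in the gradient was not tested.

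Cycling cells of the 2 genotypes at 3 dpa differed in few genes. With 10 CPM added to each level, 61 of 7945 genes (0.768%) lay at least 1 apart on the log2 scale, 10 higher (0.126%) and 51 lower (0.642%) in het, and no gene of the lists described above was among them. The G2/M genes had a median log2 ratio of 0.37 of het over WT beside 0.02 for all genes, with cdk1 at 0.74. The cycling cells of het were shallower (median 26978.5 against 41262.5 UMIs), and the same cut of 2 UMIs asks a higher level of a shallower cell. Their joint level of top2a and mki67 was 452 CPM in het against 350 CPM in WT. The part of the cut in the G2/M ratio was not tested. Among the genes named by size, ost4, an oligosaccharyltransferase subunit gene, stood at 70.7 CPM in het (exact Poisson interval 63.4 to 78.7) against 385 CPM (371 to 400) in WT, a log2 ratio of −2.29, and at −2.38 in the non-cycling cells. The mitochondrial gene mt-co1 stood at 600 CPM in het against 2045 CPM in WT (−1.75, and −1.87 in non-cycling cells), and the respiratory gene ndufa1 at 91.1 against 265 CPM (−1.44, and −1.46). The ratios of these 3 genes were as large in non-cycling cells. Those of CR753876.1 (−1.91 against −1.41 in non-cycling cells), the tubulin gene tuba1c (−1.32 against −0.52) and si:ch211-69g19.2 (1.01 against 0.087) were smaller there, and these differences were not tested. The ferritin-like gene fthl31 was highest in het at 32.4 against 5.23 CPM, with 98.7% of its het UMIs in 1 cell.

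The few cycling cells at 7 dpa had higher summed levels of the dermatopontin gene and lower ones of timp2b and cx43 than those at 3 dpa. In WT (6 cells) and het (7 cells), 506 of 6544 genes (7.73%) lay at least 1 apart from 3 dpa in the same direction, 102 higher (1.56%) and 404 lower (6.17%). The dermatopontin gene dpt stood at 888 CPM (751 to 1044) in WT and 407 CPM (329 to 498) in het at 7 dpa, against 31.5 and 49.9 CPM at 3 dpa. The collagen XVIII gene col18a1b stood at 248 and 191 CPM against 12.3 and 10.5 CPM. The inhibitor gene timp2b went the other way, to 139 and 26.0 CPM from 1320 and 1586 CPM, and the gap junction gene cx43 was at 0 in both 7 dpa groups against 95.1 and 105 CPM. Non-cycling cells moved the same way, with log2 ratios of 7 to 3 dpa of 1.90 (WT) and 1.27 (het) for dpt and −2.27 and −2.69 for timp2b. They were −1.50 and −1.45 for cx43 and 1.28 and 0.88 for col18a1b. The sums at 7 dpa rest on 6 and 7 cells, of which 2 and 4 were likely doublets. A single cell held 56.5% of the dpt UMIs in WT and 76.6% in het, and 61.0% and 70.5% of those of col18a1b. The WT cells at 7 dpa also held 17702 CPM of cardiomyocyte markers.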

How the data were processed

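Single-cell libraries were made with a 10x Genomics 3' kit v3.1 from digested, Hoechst-sorted ventricles, per the labels' protocols. UMI counts of 27771 genes in each barcode were deposited, as matrices that Cell Ranger 3.0.2 wrote per the file headers. Cell Ranger 3.0.2, Seurat 3.1.4 and build GRCz11 are named per the submitters' processing notes, and further filters of the authors are not given in the sources used here. Identifiers that shared 1 of 528 symbols were summed, and reads of near-identical paralogs could be split by the counting.

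The cells, gene lists and tests were chosen with earlier results of these data known. UMI sums per library and class were tested with edgeR 4.0.16 (quasi-likelihood, TMM scaling, library as block) in the 2 libraries with at least 10 cycling cells, after edgeR's filter on low counts and after a check on simulated data. A level is the UMIs of a gene per 1000000 UMIs of the summed cells. UMIs remove most PCR copies, and intervals are exact 95% binomial or Poisson intervals for counting error only. Doublet scores came from simulated pairs of cells in each library, marking 0.8% of cells per 1000 cells. Depth-matched cells were, for each cycling cell, the nearest unused non-cycling cell of its library in total UMIs. Ratios between libraries were taken after 10 CPM were added. Named genes were the 12 highest and 12 lowest called genes with at least 50 UMIs and the same sign in both libraries, outside the rule, the cell-cycle lists, and mitochondrial and ribosomal protein genes. Between libraries they came from the 5 highest and 5 lowest, and list genes could be named freely. Alternatives included DESeq2 1.42.0, other cuts on UMIs, and cells without likely doublets. Replicate numbers pair nothing here, since each group is 1 library. Promoter motifs were not analysed here.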

Additional observations from a re-analysis of the deposited data

Results flagged for a closer look

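The tight junction gene cldn11a, an epicardial list member, differed between cycling and non-cycling cells in opposite directions in the 2 libraries at 3 dpa. The log2 difference was 0.41 in WT, with 20.1 CPM in cycling against 13.6 CPM in non-cycling cells. It was −0.98 in het, with 9.26 against 15.8 CPM. With 1 library per genotype the difference between genotypes was not tested, and the joint value of −0.14 did not pass the test.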

How the results depend on the processing

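The peak at 3 dpa was present under every cut tried, but its height followed the cut. In WT and het at 3 dpa the share was 34.3% and 30.0% with at least 1 UMI of top2a and mki67, 19.5% and 17.1% with at least 3, and 16.9% in each after thinning to 3000 UMIs. It was 7.62% and 6.96% after thinning to 1000 UMIs, 17.9% and 17.5% with tcf21 required, and 38.4% and 42.2% in cells of at least 10000 UMIs, where the log2 ratio of het to WT was 0.14. With at least 1 UMI the share at 7 dpa was 2.19% (WT) and 1.78% (het), and in het 1.01% after thinning to 3000 UMIs and 1.43% in cells of at least 10000 UMIs. In het sham it was 0.182% with at least 3 UMIs. The log2 ratio of 7 to 3 dpa was −3.97 in WT and −4.07 in het with at least 1 UMI, −4.33 and −4.07 after thinning to 3000 UMIs, and −3.44 and −4.14 after thinning to 1000. In het, with at least 3 UMIs, the ratio to sham was 6.55 at 3 dpa and 1.12 at 7 dpa, and 1.39 at 7 dpa after thinning to 3000. Ratios against WT sham are undefined where that library has 0 cycling cells.

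The genes that rose and fell numbered 1699 and 2031 against depth-matched cells, 1278 and 1280 with DESeq2's Wald test, 1630 and 1906 with no replicate block, 818 and 1769 with libraries of at least 5 cycling cells, and 1738 and 1970 among cells with collagen XII UMIs. No paired analysis across groups was possible because each group has 1 library, and the block joins the 2 classes of a library. With scaling by library totals 3964 rose and 2498 fell, and the median of all genes moved to 0.16. Leaving out a library leaves no residual degrees of freedom, so it gives values with no test. The main set held only the 2 libraries at 3 dpa, since no sham or 7 dpa library had 10 cycling cells. Of 91 named genes 55 kept direction and call under every alternative with a test, and 36 did not.

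The S phase share of list UMIs was 45.5% (WT) and 42.0% (het) at 3 dpa without the top gene of each list and 44.9% and 39.3% with at least 4 UMIs. In the small groups it was 71.4% and 73.4% in WT at 7 dpa with at least 4 UMIs and without likely doublets, 11.6% and 94.9% in het sham under the same settings, and 41.6% without the top gene and 63.4% without likely doublets in het at 7 dpa.

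Signs turned for 11 named genes, and the cause was not tested. Against depth-matched cells cygb1 was −0.13, col12a1a −0.10, mdka −0.074 and krt8 −0.18. With libraries of at least 5 cycling cells cygb1 was −0.49, timp2b −0.061, postnb 0.063, col12a1a −0.33, col12a1b −0.46, mdka −0.18, nrg1 −0.022, fzd7a −0.018 and krt8 −0.74. Among cells with collagen XII UMIs cygb1 was −0.20, col12a1a −0.28, col12a1b −0.18, mdka −0.21 and krt8 −0.17. With library totals postnb was 0.14, vegfaa 0.064 and cldn11a 0.024, and with no filter on low counts postnb was 0.039. In cells with 0 UMIs of 5 blood genes nrg1 was −0.16 and krt8 −0.0063. The krt8 value was −0.011 without likely doublets, −0.060 with at least 4 UMIs and −0.045 under 5000 CPM of cardiomyocyte markers. With 1 library left out, krt8 ran from −0.0058 to 0.0083, postnb from −0.14 to 0.041 and cldn11a from −0.98 to 0.41. Without likely doublets the log2 ratio of cxcl8a between 7 and 3 dpa in het was −1.26. At 7 dpa and sham the 0 to 7 cycling cells limit every value.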

Other observations

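The gene levels of the small sham and 7 dpa groups were not part of the main comparison. They entered the fit with libraries of at least 5 cycling cells, and those at 7 dpa entered the ratios to 3 dpa. The 5 cycling cells of het sham had fn1b at 7162 CPM, npm1a at 129 CPM and col12a1a at 0 CPM, and acta2, the smooth muscle actin gene, at 2466 CPM. Their fn1b level lay above that of the non-cycling cells of the same library, the reverse of the direction at 3 dpa. In them T or NK cell markers summed to 461 CPM and macrophage markers to 901 CPM. The 7 cycling cells of het at 7 dpa had postnb at 849 CPM, against 316 CPM at 3 dpa, and pan-leukocyte markers at 892 CPM. The 6 cycling cells of WT at 7 dpa had postnb at 870 CPM against 446 CPM at 3 dpa, and btg2 at 1064 CPM against 180 CPM.

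Non-cycling stromal cells of the sham libraries held less fn1b than those at 3 dpa, at 1002 CPM in WT and 1018 CPM in het, so the 600.5 and 853 CPM of cycling cells at 3 dpa lay nearer to the sham level than to the 5777 and 8711 CPM of their non-cycling neighbours. For fn1a the sham levels were 42.5 and 99.4 CPM, far below the cycling cells.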
